A study of Homo sapiens with 74 samples.

Results

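The regions described here are the 1373 bins of 100 kb that begin within 4 Mb of the centromere point of 17 human autosomes, in a table of 28163 bins, of which they make up 4.88%. The acrocentric chromosomes were left out by the rule, as were 3 bins of the span with no coverage in the untethered bulk libraries. Each chromosome gave 78 to 81 bins, which fall into 34 sides, the p and the q side of each centromere. Membership rests on position alone, apart from the 3 bins without coverage, so that fusion over Dam, contact in single cells and RNA were free to vary among the bins. The other 23155 bins of the same 17 chromosomes served for comparison.

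Contacts of DNA with the nuclear lamina were measured by DamID in HEK293T, an established line from human embryonic kidney with the SV40 T antigen. Dam is a bacterial methylase that marks the adenine of GATC, and DpnI cuts only marked sites, so that sequenced fragments report where the enzyme had been. Cells were transfected transiently with FuGene HD and kept with Shield-1, a small molecule that protects proteins tagged with its binding domain, at 1 mM for 20 hours before harvest. In bulk, 2 libraries carried DamV133A-LMNB1, a point variant of Dam joined to lamin B1, and 2 carried untethered DamV133A. A second bulk set held 2 libraries each of DamV133A-LMNB1, untethered DamV133A, DamWT-LMNB1 and untethered DamWT. Individual cells were isolated and prepared on microfluidic chips: 36 with DamV133A-tdTomato-LMNB1 and m6A-Tracer-NES in batch 2, 15 with DamV133A-LMNB1 and m6A-Tracer in batch 1, and 3 with untethered DamV133A in batch 1. Untreated cells gave 2 RNA libraries. No label ties replicates to separate cultures, so p-values measure the spread between these libraries, which may be technical. The fits over bins and windows borrow that spread across all regions. Very small p-values therefore do not rest on the libraries of a region alone. Transient transfection gives each cell its own dose of enzyme, and the labels do not give it.

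Human centromeres are built on arrays of alpha satellite, a repeat whose monomers are arranged head to tail in higher order units, and they are flanked by older satellite and by segmental duplications that pass into unique sequence. This DNA is rich in constitutive heterochromatin, which in many cell types lies at the nuclear periphery or around the nucleolus. Genes are sparse there and often belong to families that spread by duplication. Short reads can be placed in such repeats only in part, which shapes what any sequencing map can show of them.

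Totals per library were 402171358 to 524019579 counts in the deep bulk set, and cells held a median of 110236 unique fragments in batch 2, 94331 in batch 1 with the fusion (9526 to 348793) and 92707 with untethered Dam. The RNA held the markers listed for the line, among them VIM at 765 to 791 CPM, PAX2 at 4.50 to 5.47 CPM and LMNB1 at 744 to 746 CPM in the 2 untreated libraries. The fragment grid itself thins towards the centromere. In the outermost 0.5 Mb of the p and q sides the median bin held 241 and 247 DpnI fragments with median lengths of 274 and 262 bp, and in the 0.5 Mb on either side of the point it held 69 and 55 fragments of 1380 and 1864 bp. Coverage fell further than the grid did: the summed bulk DamV133A count per bin had medians of 22328 and 32705 at the outer edges, against 446 and 357 beside the point. Of the 1373 bins, 644 (46.9%) lay more than 4-fold below the median count of all bins, against 2.24% of the other bins of the same chromosomes, and 2 had more than 4 times that median. The 727 bins within 4-fold of the median are given separately below wherever this moves a result.

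In 119 bins, 7 runs in all, the deposited bulk counts were the same number in bin after bin because 1 DpnI fragment spans the run. The longest such fragments measured 18001043 bp on chromosome 1, 15007994 bp on chromosome 9 and 8105357 bp on chromosome 16. These bins are 1 measurement repeated, not independent ones. Arrays of equal fragments also recurred. On chromosome 11, 3201 of the 13260 member fragments (24.1%) were 846 bp long, on chromosome 17 there were 1312 of 846 bp, and on chromosome 1 there were 905 of 336 bp. With the bases of GATC added, these lengths are 4.97, 4.97 and 1.99 times that of an alpha satellite monomer.

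Unique promoters show the letters that the assay reads. Of 393 promoter windows of 300 bases from genes in the pericentromeric bins (RefSeq, GRCh38.p14), 152 (38.7%) hold at least 1 GATC, which reads the same on both strands, against 39.8% of 21143 autosomal promoters. All 203 GATC in these windows fell on a border of a DpnI fragment in the deposited grid. Printed 5′ to 3′ with GATC in capitals are 2 promoters of silent olfactory receptor genes from bins higher in the fusion and 2 of expressed genes from bins lower in it. They were chosen after the values were seen, by bin fold change and RNA level among promoters with a GATC. OR5M10 is at chr11:56577672-56577971 on the minus strand, OR8H2 at chr11:56103437-56103736 on the plus strand, SNRNP200 at chr2:96305497-96305796 on the minus strand and HNRNPF at chr10:43397228-43397527 on the minus strand.
OR5M10: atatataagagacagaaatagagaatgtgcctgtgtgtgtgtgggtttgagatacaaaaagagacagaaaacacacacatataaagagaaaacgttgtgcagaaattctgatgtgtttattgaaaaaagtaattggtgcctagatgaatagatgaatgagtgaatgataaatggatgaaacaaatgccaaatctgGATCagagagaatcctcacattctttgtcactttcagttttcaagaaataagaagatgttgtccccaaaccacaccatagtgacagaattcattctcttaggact
OR8H2: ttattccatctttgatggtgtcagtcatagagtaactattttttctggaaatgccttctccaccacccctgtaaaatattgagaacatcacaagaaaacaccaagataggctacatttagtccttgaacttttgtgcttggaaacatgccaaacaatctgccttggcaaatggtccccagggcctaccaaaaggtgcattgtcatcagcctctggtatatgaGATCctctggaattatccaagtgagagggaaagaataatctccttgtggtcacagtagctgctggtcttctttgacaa
SNRNP200: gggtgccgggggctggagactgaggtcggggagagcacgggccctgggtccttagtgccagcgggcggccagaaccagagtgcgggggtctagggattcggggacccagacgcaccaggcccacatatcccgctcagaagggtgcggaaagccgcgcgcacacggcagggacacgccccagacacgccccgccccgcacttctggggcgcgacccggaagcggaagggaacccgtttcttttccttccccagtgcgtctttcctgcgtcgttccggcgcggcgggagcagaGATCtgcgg
HNRNPF: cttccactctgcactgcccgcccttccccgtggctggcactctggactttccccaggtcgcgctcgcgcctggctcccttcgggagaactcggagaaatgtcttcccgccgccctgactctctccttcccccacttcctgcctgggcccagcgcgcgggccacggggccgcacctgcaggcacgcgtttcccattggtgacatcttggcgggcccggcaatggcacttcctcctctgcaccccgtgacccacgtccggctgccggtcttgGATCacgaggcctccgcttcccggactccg
The bins of the OR5M10 and OR8H2 promoters had bulk log2 fold changes, DamV133A-LMNB1 over DamV133A, of 1.65 and 1.64 (adjusted p = 4.2e-05 and 6.5e-05, Benjamini-Hochberg, from edgeR's quasi-likelihood fit of all bins), and those of SNRNP200 and HNRNPF had -1.16 and -0.66 (adjusted p = 1.7e-04 and 0.0119). Each promoter carries 1 site and so touches 2 fragments. Single fragments held few reads: the pair at OR8H2 had 0 and 37 counts in the DamV133A-LMNB1 libraries and 0 and 12 in DamV133A of the variant set, and the pair at HNRNPF had 34 and 44 against 0 and 2. The fragments at OR5M10 and SNRNP200 had 0 in all 8 variant libraries, which is why bins and 4 Mb windows, not sites, carry the tests below.

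Lamin B1 fusion over untethered DamV133A split the pericentromeres by chromosome. Of the 34 sides, each summed to a 4 Mb window, 17 were higher in the fusion and 15 lower, and 7 chromosomes (3, 5, 6, 7, 9, 11 and 12) were higher on both sides. Over all 727 windows tested, 44.6% were higher and 47.2% lower, so that the pericentromeric share called in each direction lay near the background. Scaling by library totals in place of TMM (trimmed mean of M-values) moved the median window from -0.04 to -0.26 and gave 15 sides higher and 17 lower, with 7p at 0.01 and 12p at -0.01, both uncalled. Sides 19p (-0.10) and 20q (-0.06) were uncalled.

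The highest sides were 5p, 6q, 3p and 12q. On 5p the fusion libraries had 469 and 474 CPM, against 218 and 206 CPM in DamV133A. On 6q they had 1435 and 1371 CPM, against 629 and 647 CPM. On 3p they had 3010 and 3051 CPM, against 1460 and 1428 CPM. In each of these sides both fusion libraries lay above both DamV133A libraries, by log2 1.15 ± 0.08 on 5p, 1.14 ± 0.05 on 6q and 1.07 ± 0.03 on 3p (SE; adjusted p = 1.8e-44, 1.1e-97 and 3.6e-163, edgeR quasi-likelihood fit of all windows, Benjamini-Hochberg). Side 12q had 990 and 964 CPM in the fusion, against 512 and 490 CPM in DamV133A, a log2 fold change of 0.96 ± 0.06 (adjusted p = 3.7e-52).

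The lowest sides were 16q, 17q, 2q and 1p. Side 17q had 395 and 397 CPM in the fusion libraries, against 751 and 748 CPM in DamV133A (log2 -0.92 ± 0.07). Side 2q had 596 and 629 CPM, against 1050 and 1060 CPM (log2 -0.78 ± 0.06). Side 1p had 571 and 534 CPM, against 909 and 945 CPM (log2 -0.75 ± 0.06). The groups did not overlap on any of the 3, and their adjusted p were 5.8e-41, 1.2e-39 and 3.0e-33 by the same edgeR test. Side 16q came lowest, with 28.0 and 27.4 CPM against 58.6 and 73.0 CPM and a log2 of -1.25 ± 0.17, but 26 of its 41 bins repeat 1 fragment. Without the repeated bins its log2 was -0.49 and its edgeR adjusted p 0.083, so the call rests on that fragment.

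The 3 chromosomes of mixed sign were 18, 4 and 10. On chromosome 18 the p side had 176 and 164 CPM in the fusion, against 77.8 and 101 CPM in DamV133A, and the q side had 564 and 605 CPM, against 895 and 969 CPM. The log2 fold changes were 0.93 ± 0.11 on 18p and -0.67 ± 0.06 on 18q. Chromosome 4 had 0.56 ± 0.05 on the p side and -0.44 ± 0.06 on the q side, and chromosome 10 had 0.50 on the p side and -0.30 on the q side. All 6 of these sides passed the test. On 16p the value of -0.37 fell to -0.02 (edgeR adjusted p = 0.839) when only bins within 4-fold of the median count were summed, and that side holds the bin of highest count of all pericentromeric bins.

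**Figure D1:**
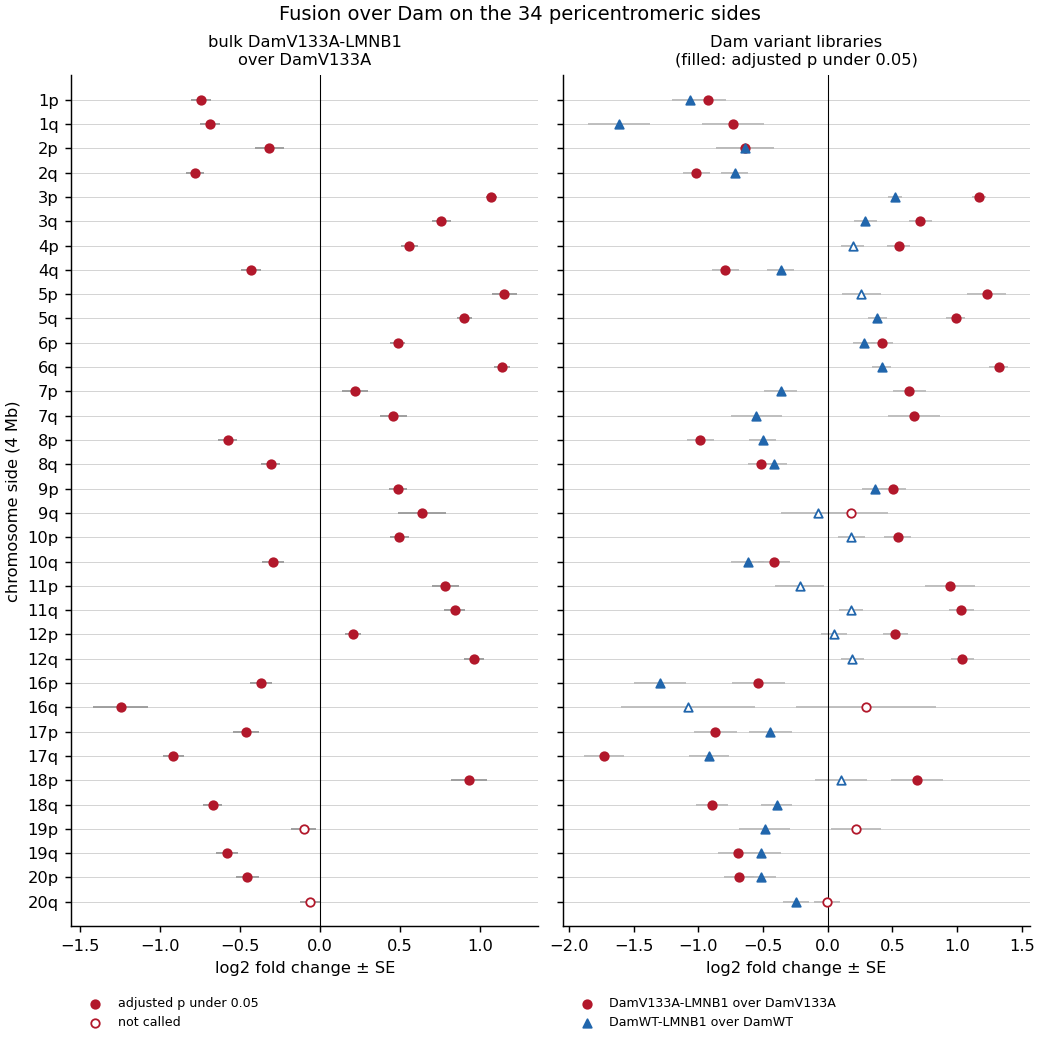
Log2 fold change with its SE for the 34 sides of 4 Mb (rows), for DamV133A-LMNB1 over DamV133A in deep bulk (left) and for both Dam variants (right, circles DamV133A, triangles DamWT); filled symbols have an adjusted p under 0.05. In bulk, 17 sides lie above 0 with a call and 15 below it, and in the variant libraries DamWT lies left of DamV133A on 25 of 34 sides.

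Bin by bin, 1332 of the 1373 bins could be tested and 41 were too low. Of the 1332, 331 (24.8%) were higher and 221 (16.6%) lower in the fusion, where 35.2% and 36.2% of all 27944 tested bins were. The median log2 fold change was 0.23 in the pericentromeric bins and -0.06 over all bins. Among the 727 bins within 4-fold of the median count, 254 (34.9%) were higher and 182 (25.0%) lower, beside 36.6% and 37.3% of all bins in that range. Library totals gave 246 higher and 312 lower, against a median over all bins of -0.32. The authors' deposited table gave medians of 0.24 for the pericentromeric bins and -0.02 for the other bins of these chromosomes.

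Calls thinned out towards the point. In the band from 2 to 1.5 Mb on the p side 24 of 82 bins were higher and 0 lower, whereas in the outermost 0.5 Mb of the q side 18 of 80 were higher and 37 lower. In the 0.5 Mb on the p and q side of the point, 10 and 6 of 80 bins were higher and 3 and 6 lower, with medians of 0.20 and 0.41. Coverage was lowest in those bands, and within 4-fold of the median count their medians were -0.10 and -0.06 over 12 and 13 bins. How far coverage set these counts was not tested.

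**Figure D2:**
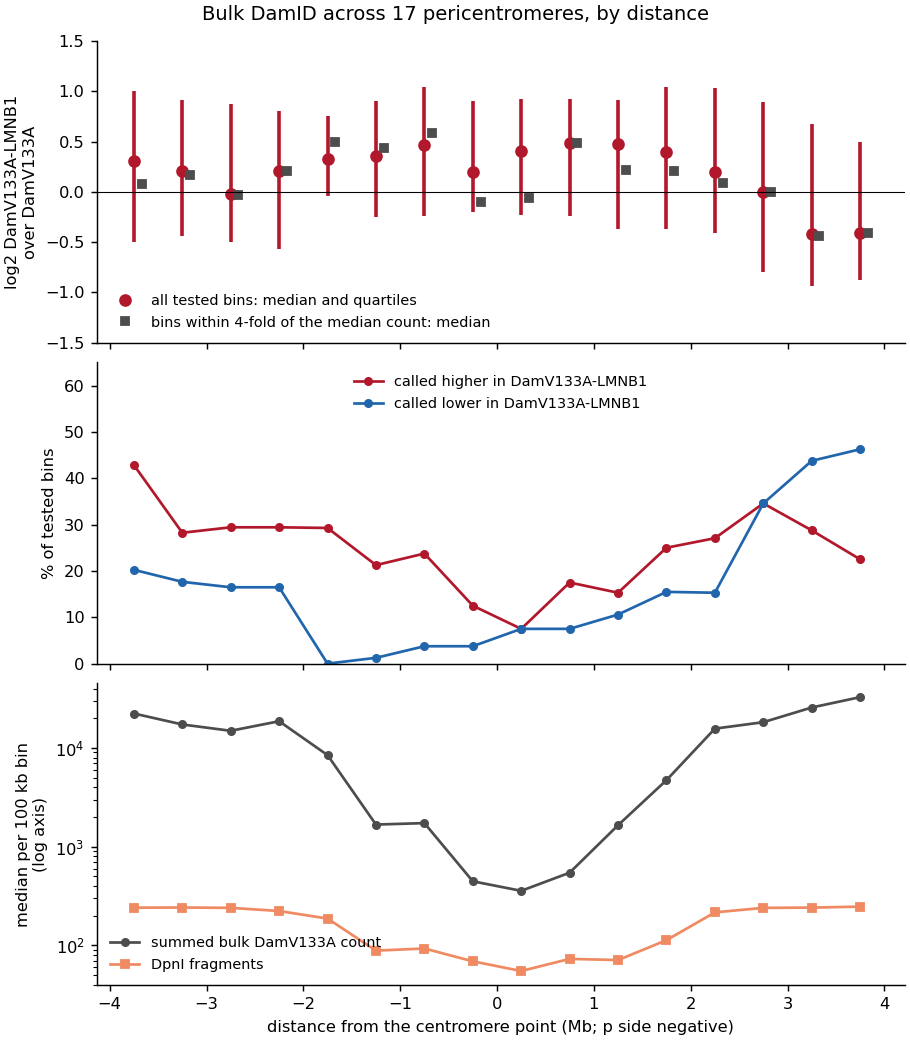
Bands of 0.5 Mb by distance from the centromere point (Mb, p side negative): log2 DamV133A-LMNB1 over DamV133A (top, medians with quartiles), percent of tested bins called in each direction (middle) and medians per bin of the summed DamV133A count and of DpnI fragments on a log axis (bottom). Count and fragment number dip to 357 and 55 beside the point, and the median log2 reaches -0.41 in the outermost q band.

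The longest runs of called bins carried the side values. On chromosome 6, 33 bins from 60200001 to 63500000 (hg38) were higher, with a median log2 of 1.51. They hold KHDRBS2, an RNA-binding protein, FKBP1C and LGSN, at 0.0119, 0.0362 and 0.178 CPM on average in untreated cells. On chromosome 3, 27 bins from 88200001 up to the centromere were higher, with a median of 1.17. That run holds EPHA3, an ephrin receptor, which had 24.2 and 24.6 CPM in untreated cells although its bin lay at 0.70. Chromosome 5 had runs of 20 bins on each side, with medians of 1.29 and 1.12. The p run begins with the bin of MRPS30, a protein of the mitochondrial ribosome, at 60.4 and 61.3 CPM.

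Of the 3 longest runs lower in the fusion, those on chromosomes 2 and 8 hold expressed genes. On chromosome 2, 24 bins from 95400001 to 97800000 had a median log2 of -1.08. Their genes include SNRNP200, a helicase of the spliceosome, at 636 and 627 CPM in untreated cells, STARD7, a lipid carrier of mitochondria, at 289 and 296 CPM, and NCAPH, a condensin subunit, at 112 and 114 CPM. ZAP70, a kinase of T cells, lies in the same run at 0.200 and 0.381 CPM. On chromosome 8, 13 bins from 41400001 to 42700000 had a median of -0.90 and hold KAT6A, a histone acetyltransferase, IKBKB, a kinase of the NF-kappaB pathway, POLB, a repair polymerase, and VDAC3, a mitochondrial pore. The 27 bins of the run on chromosome 16, with a median of -1.41, include 26 that repeat 1 fragment.

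Some of the single bins at the extremes rested on few reads or on 1 library. The bin at 93400001 of chromosome 3 was highest, with 8138 and 555 counts in the fusion libraries and 402 and 968 in DamV133A, a log2 of 3.17 ± 0.67 (SE; edgeR adjusted p = 2.9e-04). One fusion library lay far above the other 3 libraries and the second fusion library did not exceed both DamV133A libraries. In the variant set the same bin had a log2 of 0.07 for DamV133A (edgeR adjusted p = 0.866). The bin at 46000001 of chromosome 5 was steadier, with 5052 and 4433 counts in the fusion, against 436 and 1380 in DamV133A, and log2 values of 2.93 ± 0.41 here and 4.42 ± 0.86 in the variant set (edgeR adjusted p = 2.6e-06 and 0.0011). At the other end, the bin of KAT6A had 5997 and 3530 counts in the fusion, against 24580 and 26300 in DamV133A, a log2 of -1.93 ± 0.25 (edgeR adjusted p = 8.2e-07). The bin at 60800001 of chromosome 7, lowest of all at -4.41 ± 1.05, had 10 and 13 counts, against 632 and 25, so that 1 DamV133A library stood far above the other 3 libraries. The bin at 97300001 of chromosome 2 had 1091 and 460 counts, against 4774 and 2157 (log2 -1.72), and those of NOS2 on chromosome 17 (-1.56) and of CST7 and APMAP on chromosome 20 (-1.52) followed.

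The bin of largest coverage lay at 34500001 of chromosome 16. It had 56736 and 47499 counts in the fusion, against 131942 and 160596 in DamV133A, a log2 of -0.98 ± 0.11 (edgeR adjusted p = 1.1e-07). Its DamV133A count was 8.71 times the median bin. The next, at 124300001 of chromosome 1, had 28601 and 19997 counts, against 63240 and 77246, a log2 of -1.03 ± 0.15 (edgeR adjusted p = 5.3e-06) and 4.18 times the median. In both bins each fusion library lay below each DamV133A library.

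Summed over all the bins, the difference between the fusion and DamV133A was within the spread of the libraries. The bins held 2.26% and 2.21% of the counts in the DamV133A-LMNB1 libraries and 2.23% and 2.28% in DamV133A. The mean count per pericentromeric bin over that of the other bins was log2 -1.19 ± 0.02 in the fusion and -1.16 ± 0.02 in DamV133A (SD, n = 2 each). The difference of -0.03 gave p = 0.667 in an exact two-sided permutation test, in which 2 libraries against 2 cannot go below 0.333. In bulk a lower signal can come from fewer cells with a contact or from less methylation per cell, which cannot be told apart.

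Untethered DamV133A gave less signal over this DNA than untethered DamWT did, at the level of 4 Mb sides. Untethered DamV133A put 2.20% and 2.35% of its counts in the bins, against 2.98% and 3.18% for DamWT, and the mean per bin over the other bins was log2 -1.15 ± 0.07 in DamV133A and -0.70 ± 0.07 in DamWT (SD, n = 2 each; difference -0.45, exact permutation p = 0.333, the smallest possible). Both DamV133A libraries lay below both DamWT libraries. On 31 of the 34 sides untethered DamV133A was below untethered DamWT, and the edgeR test called 14 lower and 0 higher. Over all 718 windows 6.55% were called lower and 2.37% higher. The share of all windows below 0 without regard to a call is not given here, so the 31 of 34 sides have no background.

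The largest called differences were on 16q, 1q and 16p. Side 1q had 462 and 612 CPM in DamV133A, against 1409 and 1855 CPM in DamWT, a log2 of -1.60 ± 0.24 (edgeR adjusted p = 8.0e-04). Side 16p had 621 and 954 CPM, against 1918 and 2310 CPM, a log2 of -1.43 ± 0.20 (edgeR adjusted p = 5.8e-04). Side 16q had 8.58 and 11.1 CPM, against 29.7 and 48.4 CPM, and a log2 of -1.99 ± 0.54 whose adjusted p was 0.036. The groups did not overlap on any of the 3. Counting fragments with a read in place of reads, an alternative chosen after seeing the data, called 5 sides lower, namely 5p, 6q, 7q, 11p and 11q. It gave -0.42 on 1q, -0.45 on 16p and -0.48 on 16q (edgeR adjusted p = 0.362 on 16q), all uncalled, and the call on 16q was also lost in 4 of 8 fits that left out 1 library. Leaving out 1 library moved the count of 14 to between 5 and 23: it was 9 without DamWT replicate 1, 6 without DamWT replicate 2, 5 without DamV133A replicate 1, 21 without either DamWT-LMNB1 library and 23 without either DamV133A-LMNB1 library.

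The arrays of equal fragments on chromosomes 1 and 11 and 1 bin showed the same order, but not every set of equal fragments did. Each set holds the commonest fragment length above 300 bp on its chromosome. In the sets of chromosomes 6, 8, 9, 12 and 20 the untethered groups overlapped. Those of chromosomes 9 and 12 hold only 52 and 76 scattered fragments (0.508% and 0.579% of member fragments), so they need not be arrays. On chromosome 6 the set held only 16 counts in DamV133A and 14 in DamWT. On chromosome 9 the fragments held 0.0726 and 0.0371 CPM in DamV133A, against 0.0259 and 0.0487 CPM in DamWT. These rest on 40 and 14 counts in all. The 905 fragments of 336 bp on chromosome 1 held a mean of 0.332 and 0.471 CPM per fragment in DamV133A, against 0.838 and 0.986 CPM in DamWT. With lamin B1 attached they held 0.227 and 0.125 CPM in DamV133A-LMNB1 and 0.209 and 0.438 CPM in DamWT-LMNB1. The mean over all fragments of the grid is 0.139 CPM, so that untethered DamWT stood above it by the most. The bin at 34500001 of chromosome 16 held 1.75% and 2.86% of the pericentromeric counts in DamV133A, against 4.78% and 5.34% in DamWT, and 0.659% and 0.542% in DamV133A-LMNB1 and 1.15% and 2.38% in DamWT-LMNB1. The 3201 fragments of 846 bp on chromosome 11, at a lower level per fragment, held 0.0147 and 0.0193 CPM in DamV133A, against 0.0426 and 0.0470 CPM in DamWT.

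At bins of 100 kb edgeR's quasi-likelihood test of the untethered enzymes called 0 of 999 tested pericentromeric bins in either direction, as 0.0% of all 28733 bins. Of the 999, 136 had an unadjusted edgeR p under 0.05, and DESeq2 called 1 higher and 39 lower. The shares of all bins by the latter measures are not given here, so those counts have no background. The median log2 over the 999 bins was -0.45, against 0.01 over all bins. Several bins on chromosomes 1, 3, 6 and 16 shared the smallest adjusted p among those below 0. At 1 of them, 123500001 of chromosome 1, the untethered DamV133A libraries had 18.6 and 24.3 CPM, against 71.7 and 128 CPM in DamWT, a log2 of -2.22 (edgeR adjusted p = 0.327).

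Attaching lamin B1 to DamV133A gave the pattern of the deep set in other libraries. Of the sides, 16 were higher and 14 lower, against 43.6% and 47.5% of all windows, and 16 of the 17 sides called higher in deep bulk were called higher here too, as were 14 of the 15 called lower in the lower direction. With library totals, which shift the median of all windows from -0.03 to -0.32, 11 were higher and 15 lower, and covered fragments gave 20 higher and 7 lower. Side 6q had 1576 and 1646 CPM in DamV133A-LMNB1, against 628 and 660 CPM in DamV133A, a log2 of 1.32 ± 0.07 (edgeR adjusted p = 1.3e-10), and 5p reached 1.23 ± 0.15. Side 17q had 143 and 204 CPM, against 585 and 566 CPM, a log2 of -1.73 ± 0.16 (edgeR adjusted p = 3.8e-08). The groups did not overlap on 6q or 17q. Side 1p had a log2 of -0.92 by counts and -0.13, uncalled, by covered fragments.

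Of the 999 bins tested in this set, 183 (18.3%) were higher and 111 (11.1%) lower, where 27.0% and 23.7% of all bins were. The share higher fell to 9.90% and 10.4% without DamV133A replicate 1 or 2, and the share lower to between 3.93% and 7.23% without either DamV133A or either DamWT library. The bins of smallest adjusted p on the lower side were those of REG4 and ADAM30 on chromosome 1, of PRKDC, the DNA repair kinase, on chromosome 8 and of LYRM9 on chromosome 17. The PRKDC bin had 1.26 and 3.09 CPM in DamV133A-LMNB1, against 31.6 and 26.6 CPM in DamV133A, a log2 of -3.74 (edgeR adjusted p = 5.0e-04). Its higher counterparts were 3 bins of chromosome 3, one with HTR1F, a serotonin receptor gene, at 108 and 142 CPM against 32.9 and 21.8 CPM (log2 2.19, edgeR adjusted p = 1.3e-04).

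Attaching lamin B1 to DamWT gave less. On sides, 6 were higher and 18 lower, against 40.1% and 38.7% of all windows, and of the 17 sides higher in deep bulk 6 were called higher and 2, namely 7p and 7q, lower. Side 7p had 336 and 353 CPM in DamWT-LMNB1, against 431 and 455 CPM in DamWT, and 396 and 424 CPM in DamV133A-LMNB1, against 249 and 282 CPM in DamV133A. The log2 fold changes of 7p were -0.36 ± 0.13 for DamWT and 0.63 ± 0.13 for DamV133A, with no overlap between the groups of either pair. Covered fragments called 6 sides higher, with 5p among them and 6p not (edgeR adjusted p = 0.0665), and 1 lower, 2q, and put 7p at 0.08, so that the lower calls with DamWT depend on the measure. Library totals gave 3 sides higher, and bins within 4-fold of the median count 10.

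Among the 999 bins 3 (0.300%) were higher and 16 (1.60%) lower, against 2.42% and 0.212% of all bins. The count of 16 went to 0 without either DamWT library or DamWT-LMNB1 replicate 1. It was 5.13% of tested bins without DamWT-LMNB1 replicate 2, 0.392% and 0.366% without DamV133A replicates 1 and 2, and 2.64% and 2.55% without DamV133A-LMNB1 replicates 1 and 2. The 3 higher bins went to 0 without either DamWT library, DamWT-LMNB1 replicate 1 or either DamV133A library and to 0.824% of tested bins without DamWT-LMNB1 replicate 2. The bins at 123300001, 123600001 and 124300001 of chromosome 1 and the bin at 34500001 of chromosome 16 (log2 -1.68) shared the smallest adjusted p among the lower ones. At 123300001 DamWT-LMNB1 had 16.2 and 28.6 CPM, against 88.5 and 104 CPM in DamWT, a log2 of -2.11 (edgeR adjusted p = 0.0217). DamV133A-LMNB1 had 14.5 and 15.0 CPM there, against 23.8 and 28.0 CPM in DamV133A. Untethered DamWT lay above the other groups at this bin. The bin was named for its low value in DamWT-LMNB1 over DamWT, so this order follows in part from the choice.

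The fusion effect was higher with DamV133A than with DamWT on 16 sides and lower on 4 by the interaction term, against 34.8% and 39.0% of all windows. Side 5p had a difference of 0.97 ± 0.21 and 6q of 0.91 ± 0.10 (edgeR adjusted p = 8.9e-04 and 3.1e-06), and 17q had -0.81 ± 0.21 (edgeR adjusted p = 0.0035). Covered fragments gave -0.59 on 17q, which was then uncalled (edgeR adjusted p = 0.0525). Library totals gave 9 sides higher, covered fragments 12 higher and 2 lower, and the fit without DamWT replicate 2 gave 2 lower. In bins the interaction called 0 of 999 in either direction by edgeR. DESeq2 called 86 higher and 20 lower, and 148 had an unadjusted edgeR p below 0.05. The shares of all bins by these measures are not given here, so these counts do not set this DNA apart. Of all bins, edgeR called 0.136% higher and 0.358% lower. Leaving out DamWT-LMNB1 replicate 2, DamV133A-LMNB1 replicate 1 or DamV133A-LMNB1 replicate 2 gave 1.83%, 2.25% and 1.76% higher and 0.458%, 2.15% and 2.84% lower.

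Most single cells with a lamin B1 fusion had a larger share of their counts in these bins than bulk did. Cells are counted in unique fragments and bulk in coverage counts of unstated unit, so the measures are unlike. How far this sets the difference was not tested. Batch 2 cells had a median of 3.68% of their fragments in the bins (2.44% to 6.50%, 36 cells), batch 1 fusion cells 2.83% (1.93% to 5.57%, 15 cells) and untethered batch 1 cells 2.14% (1.96% to 2.23%, 3 cells). The shallowest cell, with 9526 fragments, had an exact 95% binomial interval of 5.12% to 6.05% around its share of 5.57%, and such intervals cover counting error only. Observed over expected fragments, with the expected number set by the summed bulk DamV133A libraries, had a median log2 of 0.71 in batch 2, above 0 in 36 of 36 cells, and of 0.32 in batch 1, above 0 in 13 of 15. In the 3 untethered cells it was -0.08 and above 0 in 0 of 3. The bulk DamV133A-LMNB1 libraries, in coverage counts, gave 0.00 and -0.03 over the same bulk DamV133A libraries. Cells of a group share a transfection as far as the labels go, so no test was made between groups. Batch, library kit, fusion and tracer changed together between the batches and cannot be told apart, and no untethered cell was in batch 2.

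**Figure D3:**
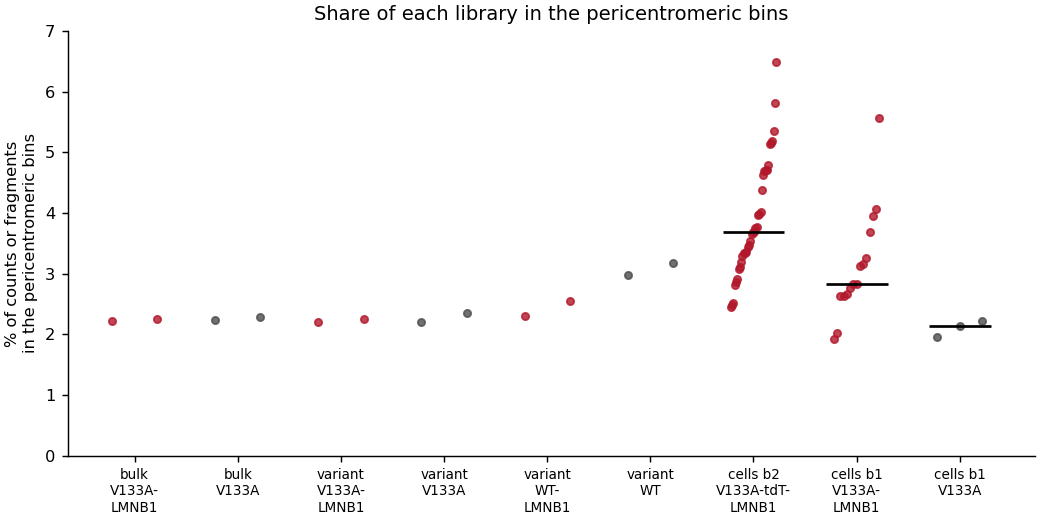
Percent of counts (bulk) or unique fragments (cells) that fell in the pericentromeric bins, 1 point per library or cell, sorted within a group, with the fusion in red, untethered Dam in grey and bars for medians over cells. Batch 2 cells spread from 2.44% to 6.50%, whereas the deep bulk libraries all sit at 2.21% to 2.28%.

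The excess was steepest in bins that bulk Dam covered poorly. In the 644 bins more than 4-fold below the median count the median log2 was 2.27 in batch 2, 1.38 in batch 1 fusion cells and -0.35 in untethered cells. The 519 low bins elsewhere on the same chromosomes gave 0.54, -0.23 and -0.92. In pericentromeric bins within 4-fold of the median count it was 0.56, 0.29 and -0.02, against 0.00, 0.01 and 0.01 in such bins elsewhere, and all 36 batch 2 cells stayed above 0. The order of the 3 groups was thus the same in well covered bins, with smaller values. Leaving out the repeated bins, the 2 bins of highest count or the 5 cells of low lamina contrast changed the medians to between 0.71 and 0.73 in batch 2 and between 0.32 and 0.34 in batch 1.

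By distance, the excess of batch 2 cells was highest beside the centromere point, and that of batch 1 fusion cells, at 2.59, in the band from 1 to 0.5 Mb on the p side. In the 0.5 Mb on the p side of the point, the observed over expected ratio had a median of 4.85 over batch 2 cells (1.29 to 14.4), of 2.29 over batch 1 fusion cells (0.516 to 14.4) and of 0.768 over untethered cells. Bulk DamV133A-LMNB1 had 0.866 and 0.975 there. In bins within 4-fold of the median count the same band gave 4.03, 2.30 and 0.929, from 12 bins with a median of 30.7 expected fragments per cell in batch 2. At the outer edge of the q side the medians were 0.962, 0.847 and 1.09. Within 2 Mb of the point the median log2 was 1.45 in batch 2, 1.02 in batch 1 and -0.48 in untethered cells.

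**Figure D4:**
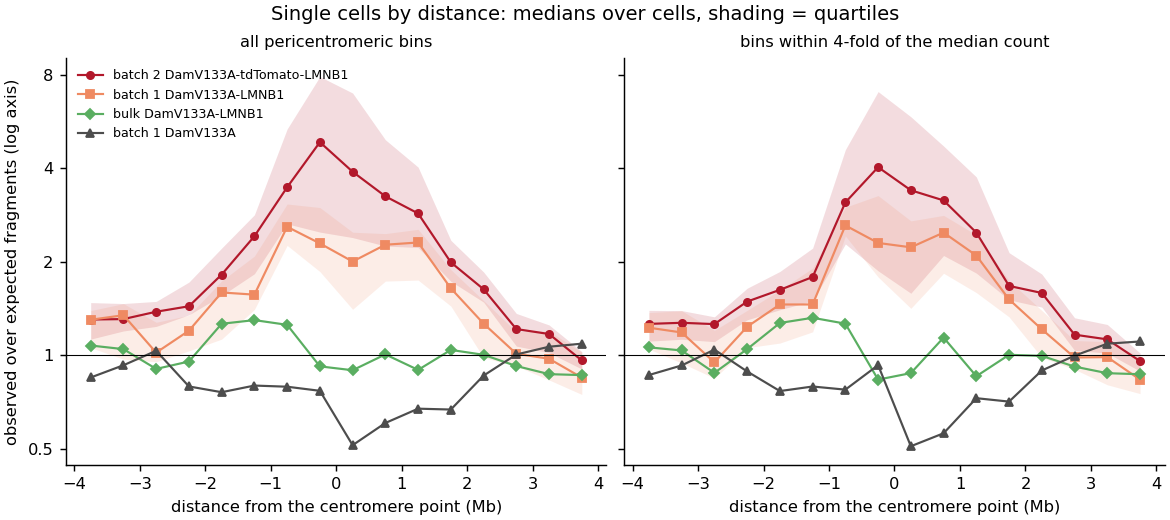
Observed over expected fragments (log axis) by distance from the centromere point in Mb, as medians over cells with quartiles shaded for the fusion cells, for all pericentromeric bins (left) and for bins within 4-fold of the median count (right). The batch 2 line peaks at 4.85 beside the point and the bulk DamV133A-LMNB1 line stays between 0.834 and 1.32 over both panels.

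Side by side, cells and bulk gave the same order with exceptions. On the 17 sides above 0 in bulk, the median cell was above 1 on 17 in batch 2, on 16 in batch 1 with the fusion and on 2 in untethered cells. On the 17 sides below 0 in bulk it was above 1 on 12, 5 and 9. Side 11p was highest in batch 2, with a median of 5.65 (0.957 to 34.4), 3.15 in batch 1 and 0.198 in untethered cells, and 2.36, 2.62 and 0.113 in its 9 bins within 4-fold of the median count. Side 5p had 3.30, 3.11 and 0.179. Sides 17q and 2q stayed low, at 0.596 and 0.669 in batch 2 and 0.563 and 0.438 in batch 1.

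Sides 1p, 1q and 16p were lower in the fusion in bulk and high in cells; 1q, like 7p and 11p above, was singled out after its values were seen. On 1q the median ratio was 3.06 in batch 2 (above 1 in 30 of 36 cells), 1.70 in batch 1 (11 of 15) and 0.489 in untethered cells (0 of 3). In its 15 bins within 4-fold of the median count it was 3.97, 2.26 and 0.490. On 1p it was 2.02, 1.51 and 1.06. On 16p it was 1.67, 1.42 and 0.435. Single cells ran from 0.155 to 12.2 on 1q in batch 2 and from 0.0653 to 9.25 on 1p in batch 1, so that some cells were almost empty there and others far above the expected level.

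**Figure D5:**
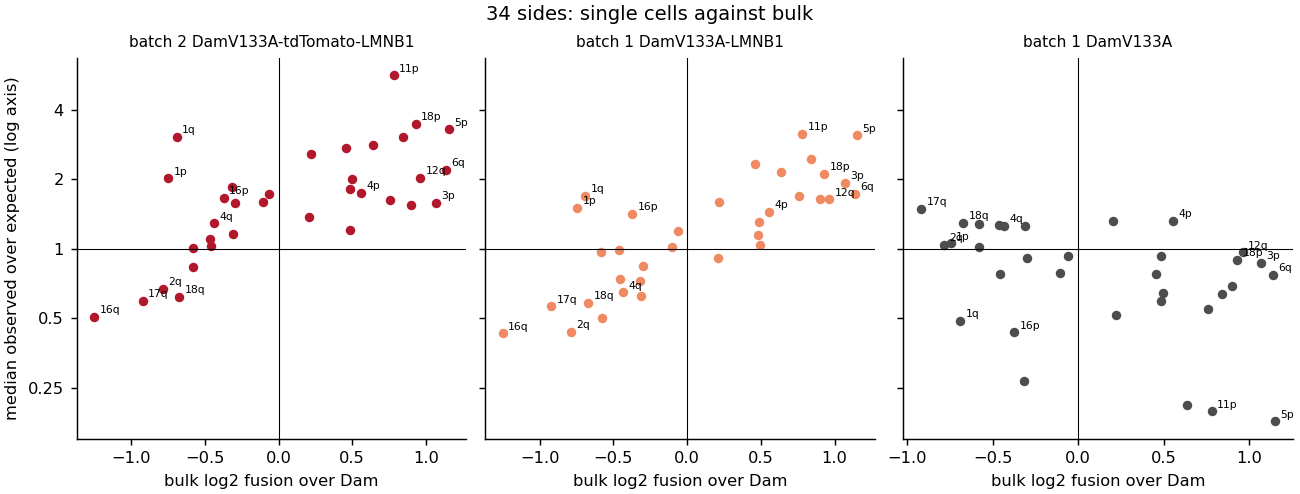
Median observed over expected fragments of the cells (log axis) against the bulk log2 fold change, DamV133A-LMNB1 over DamV133A, for the 34 sides in batch 2, batch 1 and untethered cells; side 16q is not drawn for untethered cells, where its median is 0. Sides 1p, 1q and 16p lie left of 0 in bulk and above 1 in both fusion panels.

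The p and q sides of a centromere were correlated from cell to cell on the median chromosome, but not on every chromosome. Across the 36 cells of batch 2, Spearman's rho between the p and q sides of a chromosome had a median of 0.55 over 16 chromosomes (0.03 on chromosome 18 to 0.98 on chromosome 1), against 0.15 over 512 pairs of sides from different chromosomes. Across the 15 cells of batch 1 it was 0.48 (-0.01 on chromosome 4 to 0.91 on chromosome 1), against 0.09. These use bins within 4-fold of the median count, and the points of a pair share a cell, its depth and its enzyme dose. Neighbouring windows away from centromeres were not compared, so the correlation is not shown to be particular to centromeres. On chromosome 1 the fragments of 336 bp lie on both sides of the point, most of them between -1.64 and 1.28 Mb. Chromosome 16 has no such bin on its q side.

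Contact, counted where a cell had at least its expected number of fragments in a bin, was frequent in bins with enough coverage. Pericentromeric bins were contacted in a median share of 46.1% per cell in batch 2, against 40.0% for other bins, in 32.3% against 36.1% in batch 1 with the fusion and in 21.5% against 36.3% in untethered cells. Within 4-fold of the median count the shares were 53.4%, 45.5% and 33.0%, against 40.1%, 36.6% and 37.0% of other bins in that range. With every cell thinned to 10000 fragments, 20.1%, 15.7% and 11.7% were counted as contacted, against 26.8%, 25.6% and 25.0% of other bins. The thinning left out 1 batch 1 cell, and it turned the order of the batch 2 medians against other bins. Of the pericentromeric bins, 71 (5.17%) were contacted in at least 80% of the 51 fusion cells, against 2.90% of the other bins.

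The bin at 41800001 of chromosome 10 was contacted in 51 of 51 fusion cells, with 480 fragments over batch 2 (6.12 times the expected number) and 88 over batch 1 (2.90 times), and in 2 of the 3 untethered cells (1.32 times). The bin at 49600001 of chromosome 5 was contacted in 50 of 51, but in the untethered cells it also held 3.73 times the expected number and was contacted in 3 of 3. At the other end, among bins within 4-fold of the median count, the bin of GINS1, a subunit of the replicative helicase, on chromosome 20 was contacted in 1 of 51 fusion cells. Its RNA was at 73.5 and 72.0 CPM in untreated cells, and its bulk log2 was -1.17. Other rarely contacted bins, likewise singled out after their values were seen, hold ID1, COX4I2 and BCL2L1, an inhibitor of apoptosis, on chromosome 20 (2 of 51), IKBKB, POLB, DKK4 and VDAC3 on chromosome 8 (2 of 51) and UBE2V2, a ubiquitin conjugating enzyme variant, on chromosome 8 (2 of 51).

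Genes were thin in this DNA and followed the split of the sides. The bins hold 410 protein-coding genes by midpoint, 2.99 per Mb, against 7.11 per Mb elsewhere on the same chromosomes, and only 7 lie within 1 Mb of a point. Of the 370 genes matched to the RNA table, 213 (57.6%) reached 1 CPM in untreated cells, against 67.5% of 15791 other genes. In bins higher in the fusion 18 of 88 genes (20.5%) did so, in bins lower in it 134 of 173 (77.5%) and in uncalled bins 61 of 109 (56.0%). Elsewhere the shares were 43.0%, 72.9% and 64.2%. Of the 88 genes in higher bins, 50 are olfactory receptor genes of chromosome 11, and 0 of those reached 1 CPM. All 18 genes that reached 1 CPM in higher bins thus lie outside that block. The shares of 20.5% and 57.6% both include the block and were not recomputed without it. Their distance from the shares elsewhere therefore cannot be read as a trait of pericentromeric genes apart from this 1 cluster. These are shares over genes, which are not replicates, and neighbours share a bin.

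Olfactory receptor genes, which encode odorant receptors of the nose, made up much of the silent part. All 50 in the bins lie on chromosome 11, all 50 are in bins higher in the fusion, 36 had an RNA level of 0 and 0 reached 1 CPM in untreated cells. Zinc finger genes of the ZNF series, many of them repressors, numbered 34. Of the 32 with RNA, 20 reached 1 CPM, 1 was in a higher bin and 9 were in lower ones. ZNF451 led them at 51.1 CPM on average. The duplicated ANKRD36 family had all 3 of its autosomal genes here, in lower bins of chromosome 2, at 16.2 CPM for ANKRD36, 11.2 CPM for ANKRD36B and 8.51 CPM for ANKRD36C, and reads of such copies may have been split between them. ANKRD30A and ANKRD30B, both lay in higher bins, below 1 CPM.

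Other duplicated families were mixed. POTEC on chromosome 18 (1.22 CPM) and POTEA on chromosome 8 (0 CPM) were in higher bins. SRGAP2C (53.3 CPM) and FAM72B (34.1 CPM), a pair of human-specific duplicates on chromosome 1, and NBPF8 (27.5 CPM) were in lower bins. GOLGA7 on chromosome 8 (66.1 CPM) was in a lower bin as well, but it was taken in by its name prefix only. A shared prefix does not make it a duplicated gene. The 4 TP53TG3 genes of chromosome 16 were in uncalled bins, and none reached 1 CPM. No gene named with ANKRD20, FRG, SPDYE or CCT6 lay in the bins, and the 1 NOTCH2NL gene had no match in the RNA table. The most abundant RNAs of the bins, singled out after their values were seen, were PRKDC at 1024 and 1045 CPM, SSRP1, a histone chaperone, at 741 and 747 CPM, SNRNP200, and PHGDH, the first enzyme of serine synthesis, at 590 and 603 CPM. The bins of PRKDC, SNRNP200 and PHGDH were lower in the fusion, and that of SSRP1 had a log2 of -0.55 with an edgeR adjusted p of 0.071.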

How the data were processed

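Per the file headers, the authors deposited whole-number coverage counts for 4 deep bulk libraries and unique fragment counts for single cells in 100 kb bins of hg38, and raw counts per DpnI fragment for 8 variant libraries. No source used here says what 1 unit of bulk coverage stands for. Alongside, the authors deposited a log2 fold change per bin and marks, 0 or 1, of control lamina bins. RNA was deposited as estimated counts per gene, per the file headers. The submitters' processing notes name Salmon, limma, DESeq2, bedtools 2.28, SAMtools 1.9, BWA 0.7.15-r1140 and Trimmomatic 0.39, with no settings.

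The pericentromeric bins and the gene lists were chosen with earlier results of these data known. Counts were fitted over all bins with edgeR 4.0.16 (R 4.3.3; TMM, quasi-likelihood test, Benjamini-Hochberg, threshold 0.05), after the tool's filter on low counts, and DESeq2 1.42.0 served as an alternative. Variant fragments were summed to bins by midpoint, leaving out 0.0201% of counts on other sequences. Sides are 4 Mb windows tiled outward from the centromere point. RNA counts were scaled to CPM by library totals, with TMM as an alternative. Sides were named if among the 4 highest or 4 lowest in bulk or on the 3 chromosomes whose sides differ most. Named bins were the 3 longest runs in each direction, the bins of highest and lowest contact, the 5 highest and 5 lowest by log2, the 5 of largest DamV133A count and, per variant contrast, the 3 of smallest adjusted p in each direction. Genes were named from those bins, with up to 4 of highest RNA per family. Fits were tested on simulated data. Cells were summarised by medians, since they are not replicates.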

Additional observations from a re-analysis of the deposited data

Results flagged for a closer look

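The effect of attaching lamin B1 differed between DamV133A and DamWT on several sides, tested by the interaction term of the edgeR quasi-likelihood fit (DamV133A minus DamWT, log2, Benjamini-Hochberg over all windows). It was higher with DamV133A on 16 sides and lower on 4. Among the sides described, the difference was 0.97 on 5p, 0.91 on 6q, 0.85 on 12q, 0.76 on 16p, 0.65 on 3p and 0.36 on 4p. It was -0.81 on 17q, -0.50 on 18q and -0.43 on 4q. The calls on 4p, 4q, 16p and 18q were lost when 1 library was left out in at least 1 of 8 ways. Counting covered fragments in place of reads, an alternative chosen after seeing the data, gave 0.36 on 16p, -0.59 on 17q and -0.31 on 18q, none of them called (edgeR adjusted p = 0.212, 0.0525 and 0.177). The causes were not tested.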

How the results depend on the processing

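Of 1019 recomputed values, 881 kept their direction and call or moved little, 50 lost a call, 85 moved further and 3 reversed. Covered fragments, chosen after seeing the data, reversed side 16p to 0.47 for DamV133A and 0.12 for DamWT, and bins within 4-fold of the median count gave 0.22 for DamV133A. Percentages of pericentromeric bins called: in bulk, lower, 6.44 within 2 Mb and 25.0 within 4-fold coverage; for DamV133A, 10.4 higher and 18.0 lower with library totals and 2.17 lower within 2 Mb. For DamWT, higher was 0.0 with library totals, 2.6 by DESeq2 and 0.48 by covered fragments, and lower was 0.601, 6.01 and 0.6, with 3.38 within 2 Mb. For untethered DamV133A over DamWT, DESeq2 gave 0.1 higher and 3.9 lower, and covered fragments 0.12 lower. For the interaction, DESeq2 gave 8.61 higher and 2.0 lower, covered fragments 1.56 and 0.719, and DESeq2 size factors 0.501 higher. The shares of all bins by DESeq2 are not given here. Leaving out 1 library gave ranges of 9.9 to 19.3 higher and 3.93 to 12.4 lower for DamV133A, 0.0 to 0.824 and 0.0 to 5.13 for DamWT, and 0.0 to 2.25 and 0.0 to 2.84 for the interaction.

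The counts of variant sides were also chosen after seeing the data. Covered fragments gave 7 lower for DamV133A, 1 lower for DamWT, 5 lower untethered and 2 lower for the interaction. DamWT had 3 higher with library totals and 10 within 4-fold coverage, the interaction 9 higher with library totals, and DESeq2 gave 24 lower untethered. Leaving out 1 library gave 5 to 23 lower untethered and 2 to 6 lower for the interaction. The library-level differences, as a median over bins and within 2 Mb, were 0.16 and 0.13 in bulk, -0.24 and 0.11 for DamV133A, -0.62 and -0.53 for DamWT and -0.67 and -0.79 untethered (-0.35 within 4-fold coverage), and the interaction was 0.64 within 2 Mb. The cause was not tested.

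In cells, the median log2 within 2 Mb was 1.45 in batch 2, 1.02 in batch 1 with the fusion and -0.48 untethered. The percent of bins contacted was 32.5, 21.6 and 9.83 at 2 times the expected number, 20.1, 15.7 and 11.7 after thinning, 45.5 in batch 1 with the fusion and 33.0 untethered within 4-fold coverage, and 15.2 untethered within 2 Mb. The share of genes expressed was 68.4% at 0.1 CPM, 58.7% within 4-fold coverage and 57.8% to 58.4% without 1 untreated library.

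Same-numbered libraries did not deviate together (r from -0.00 to 0.03). The replicate block gave 25.0% higher and 17.6% lower in bulk, 17.3% and 11.5% for DamV133A, 0.2% and 1.4% for DamWT and 0 for the other contrasts, with 16 sides lower untethered. Depth limits the bins beside the centromere most.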
